A study of Homo sapiens with 26 samples.

Results

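BRD7 and TENT4B are neighbours on the long arm of chromosome 16. The neighbourhood described here is the 800 kb of GRCh37 chromosome 16 between 49.9 and 50.7 Mb. Its members were the regions in which any list held a ChIP-seq peak (a stretch of genome enriched in the chromatin immunoprecipitate over its input control), after peaks that overlapped by 1 bp or more were merged. This gave 46 of 87603 regions for H3K27ac and 60 of 110276 regions for H3K4me1. The 16 lists came from HCT116, a colorectal cancer line with wild-type p53. WT cells were treated with the vehicle DMSO (called 0 h) or with Nutlin-3a for 1 h or 10 h, and H3K27ac and H3K4me1 were each profiled in 2 lists per time point. The other 4 lists held H3K27ac of a HCT116 derivative whose RAD21 carries a degron tag, treated with DMSO or with Nutlin-3a for 1 h (called here the RAD21 line). The study's methods have RAD21 degraded by an auxin-like compound before Nutlin-3a was added, which the labels do not state, so loss of RAD21 and other differences between the cell lines cannot be told apart.

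Nutlin-3a frees p53 from HDM2, the ubiquitin ligase that keeps it low, and p53 then binds DNA and raises transcription of its targets. H3K27ac marks active promoters and enhancers. H3K4me1 marks enhancers whether or not they are active, and where both marks overlap an enhancer is taken as active. RAD21 is a subunit of cohesin, the ring complex that extrudes chromatin loops and brings distal enhancers and promoters together. BRD7 is a bromodomain protein and one of the subunits specific to the PBAF form of the SWI/SNF remodeling complex, and it is also known as a cofactor of p53. TENT4B (formerly PAPD5) is a non-canonical poly(A) polymerase that adds short tails to nuclear RNAs and thereby directs them to trimming or to the nuclear exosome.

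TENT4B spans chr16:50186822-50269221 on the plus strand and BRD7 spans chr16:50347398-50402899 on the minus strand, so that the start sites lie 216 kb apart. Between them lies ADCY7, an adenylyl cyclase that makes cAMP, whose last exons overlap the end of BRD7. CNEP1R1, the regulatory subunit of a phosphatase of the nuclear envelope, and HEATR3, a factor in ribosome assembly, lie before TENT4B. NKD1, an inhibitor of Wnt signaling, starts 179 kb beyond the BRD7 start. These 6 were the protein-coding genes whose promoter in the window held a peak, a promoter being 1000 bp upstream to 200 bp downstream of the start of a transcript in the basic set of the annotation.

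Sequence of the places that carry the results is given first, read from GRCh37. The first pair shows the 250 bases before the first annotated start of each gene, where the promoters were compared, with GC boxes (GGGCGG on either strand) in capitals. The last shows 250 bases of the distal of 2 regions in TENT4B intron 1 whose rank changed with Nutlin-3a. They are centred on its highest H3K27ac summit, which lay in the second RAD21 line list with DMSO and not in a WT list. Capitals in this last sequence mark GGAATG (the TEAD site, searched on either strand).
BRD7 promoter, minus strand, chr16:50402900-50403149: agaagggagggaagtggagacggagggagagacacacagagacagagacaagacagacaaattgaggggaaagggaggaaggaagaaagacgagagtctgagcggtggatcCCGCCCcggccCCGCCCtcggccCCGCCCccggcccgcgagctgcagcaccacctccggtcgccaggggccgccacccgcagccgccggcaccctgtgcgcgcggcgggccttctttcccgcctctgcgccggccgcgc
TENT4B promoter, plus strand, chr16:50186572-50186821: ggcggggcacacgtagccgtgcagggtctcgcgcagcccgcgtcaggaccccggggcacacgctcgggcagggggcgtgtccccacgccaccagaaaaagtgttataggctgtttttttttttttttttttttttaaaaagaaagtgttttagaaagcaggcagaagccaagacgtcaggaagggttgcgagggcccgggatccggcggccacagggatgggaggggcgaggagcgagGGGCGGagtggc
Distal TENT4B intron region, plus strand, chr16:50236684-50236933: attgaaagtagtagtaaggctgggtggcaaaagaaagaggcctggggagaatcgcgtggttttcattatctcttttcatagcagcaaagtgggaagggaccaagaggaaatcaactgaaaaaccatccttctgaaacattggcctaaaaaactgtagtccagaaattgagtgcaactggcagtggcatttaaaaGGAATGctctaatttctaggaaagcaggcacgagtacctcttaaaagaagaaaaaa

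The BRD7 window held 3 GC boxes and the TENT4B window 1, and 53.2% of the windows of the same length before 20132 protein-coding genes held at least 1. Neither window held CCAAT (33.4% of windows), CGGAAG (the ETS core, 19.3%) or TATAAA (9.71%). GC content was 70.8% before BRD7 and 60.4% before TENT4B, with a median of 61.2% over all genes. The distal intron window was poorer in GC, at 41.2%, beside a median of 51.2% over 74727 windows around H3K27ac summits outside promoters. Of those windows 12.5% held GGAATG, while the distal intron window held no CTTTGA (the TCF/LEF site, 12.3% of windows), TGANTCA (the AP-1 site, 9.16%) or p53 half-site (8.85%). The p53 half-site is the decamer of purines, a C, 2 weak bases, a G and pyrimidines that p53 binds in pairs. In the full length of the 46 H3K27ac regions there were 11 half-sites in 10 regions (21.7%, beside 26% of all H3K27ac regions), including the TENT4B promoter, and no region held a pair separated by 0 to 13 bases. The 4 regions gained in WT at 10 h, were among the 10, and of all 10018 regions gained at that time 39.5% held a half-site. These letters say nothing of whether p53 was bound there.

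The H3K27ac regions called in every list lay mostly at promoters, while the H3K4me1 regions called in every list were spread within genes, between genes and at promoters. Over the genome, too, 10615 of the 18757 H3K27ac regions called in every list lay in coding promoters. Of the 46 H3K27ac regions, 7 lay in promoters of protein-coding genes (15.2%, beside 14.7% of all H3K27ac regions), 1 in a noncoding promoter, 34 within genes and 4 between genes (8.7%, beside 18.6%). Only 8 were called in all 10 lists, which is 17.4% beside 21.4% of all H3K27ac regions, and 22 were called in a single list, which is 47.8% beside 41.6%. The 8 were the promoters of CNEP1R1, HEATR3, TENT4B, ADCY7, BRD7 and NKD1, the distal TENT4B intron region and a region at an outer ADCY7 start. That region is counted as within a gene because it spans the first annotated ADCY7 start, which belongs to transcripts outside the basic set. With it counted as a promoter, 7 of the 8 would be promoters. The remaining coding promoter region, chr16:50581593-50581839 before NKD1, was called in 1 list. None of the 4 intergenic H3K27ac regions was called in every list. Of the 24 intergenic H3K4me1 regions 10 were called in all 6 lists of that mark. So were 11 of the 26 within genes, 3 of the 4 noncoding promoters and the 6 coding promoters. The share of intergenic regions, or of H3K4me1 regions within genes, called in every list over the genome was not counted. The marks are also not alike here: the 10 H3K27ac lists hold narrow peaks of both lines, and the 6 H3K4me1 lists broad peaks of WT alone. The H3K4me1 regions that overlapped no H3K27ac region of any list were 21 of the 24 intergenic ones (87.5%, beside 79% of all intergenic H3K4me1 regions), 16 of the 26 within genes (61.5%, beside 68.8%) and 0 of the 6 coding promoters (beside 12.2%). Over all kinds it was 39 of 60 (65%, beside 63.6%), so the neighbourhood was close to the genome in this. The share of all H3K4me1 regions called in every list was 54.8%, beside 50% in the neighbourhood.

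**Figure D1:**
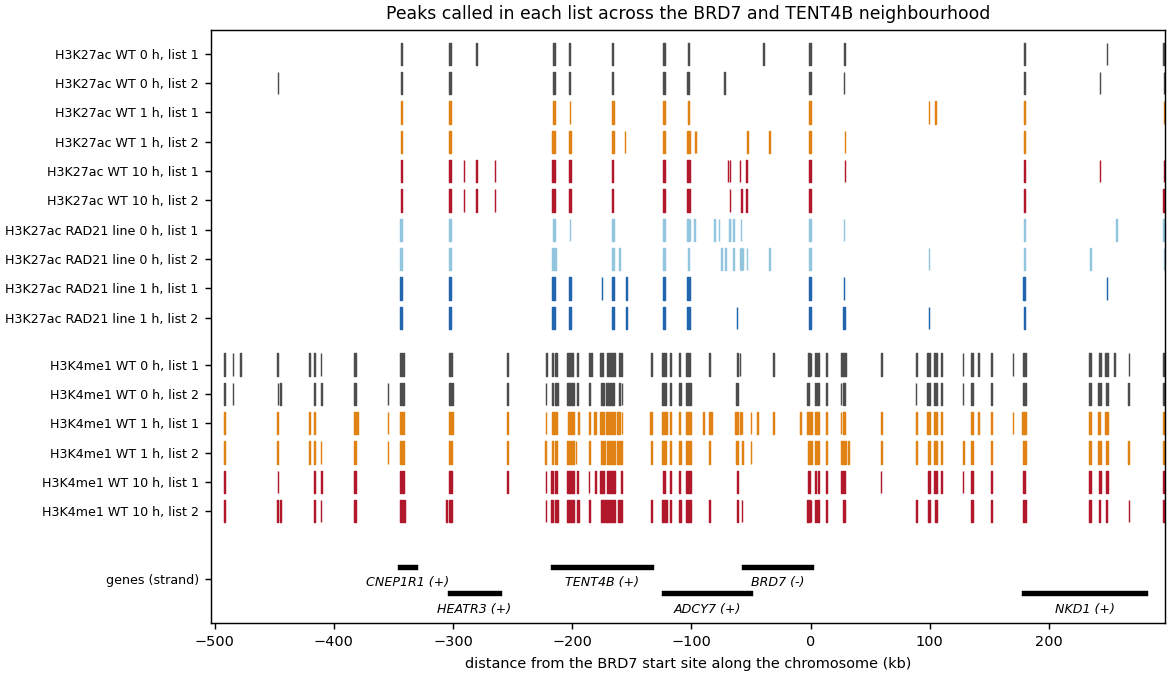
Peaks of each of the 16 lists across the neighbourhood, drawn to scale in kb from the BRD7 start site, with the 6 protein-coding genes below. H3K27ac stands in columns at the promoters and in TENT4B in all 10 lists. Beyond BRD7 and outside the NKD1 promoter H3K27ac peaks were each called in some lists only. H3K4me1 peaks are more numerous there and before CNEP1R1.

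The lists differed in their number of peaks. The files give no read counts, and sequencing depth was not used here. H3K27ac lists held between 31637 and 49127 peaks, of which 12 to 20 lay in the window and covered 1.34% to 2.27% of it. H3K4me1 lists held between 84492 and 92943 peaks, with 42 to 55 in the window and 7.81% to 11.2% of it covered. In the H3K27ac lists of WT at 0 h and in the first WT list at 1 h the peak names lack the word input that all other lists carry. Those lists covered 0.993% to 1.03% of the genome, and the other H3K27ac lists 1.59% to 2.15%. Only WT H3K27ac at 1 h holds both forms of peak name. A fit with the name form as a term takes the effect of form from those 2 lists alone. Against WT at 0 h, the H3K27ac lists of WT at 10 h and of the RAD21 line at 0 h differ in name form. There form cannot be told apart from treatment or line. The -log10 p-values and fold enrichments also differed in scale between lists, so regions were ranked within each list by their highest -log10 p-value. Only the regions called in every list of a mark were ranked (18757 for H3K27ac and 60476 for H3K4me1). A percentile below is the place of a region in that ranking. Rank changes are differences between group means of the corresponding normal scores (a normal score of 1 lies 1 SD above the middle of the list), given with their SE from limma over all regions. With 2 lists against 2 an exact permutation test cannot go below p = 0.333, so the p-values rest on the spread that limma shares across regions.

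The promoter of TENT4B ranked high in H3K27ac, and its rank change with Nutlin-3a in WT passed the threshold at neither time. Its region, chr16:50186059-50188854, covered the first exon. Among the 10615 protein-coding promoter regions called in every list, it stood at percentile 76.8 ± 10.1 (SD, n = 10 lists). Its -log10 p-values were 236 and 260.6 in WT at 0 h, 165.3 and 238.6 at 1 h, and 361.1 and 381.1 at 10 h. In percentiles of all shared regions these were 89.3 and 92.7 at 0 h, 91.9 and 90.0 at 1 h, and 86.4 and 87.0 at 10 h. The 0 h and 1 h lists overlapped, and both 10 h lists lay slightly lower. The rank change was -0.01 ± 0.12 at 1 h (limma adjusted p = 0.953) and -0.24 ± 0.12 at 10 h (limma adjusted p = 0.183). Over the alternative settings it ranged from -0.38 to 0.09 at 1 h and from -0.64 to -0.12 at 10 h. The summit lay between 73 and 118 bp downstream of the first annotated start in all 10 lists.

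In the RAD21 line the TENT4B promoter was lower in rank. It stood at percentiles 76.4 and 71.8 with DMSO and at 83.9 and 82.0 after 1 h of Nutlin-3a, below every WT list. The difference from WT was -0.70 ± 0.12 at 0 h (limma adjusted p = 0.000657), and -0.81 to -0.59 without any 1 of the 4 lists. The lines differ in name form at 0 h, so form and line cannot be told apart there, whichever list is left out. At 1 h it was -0.38 ± 0.12 (limma adjusted p = 0.0547), and without the second WT list at 1 h it was -0.44 with a limma adjusted p of 0.00766. The change in the RAD21 line at 1 h was 0.30 ± 0.12 (limma adjusted p = 0.0765).

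The BRD7 promoter moved more between lists. Its region, chr16:50401269-50403429, covered exons 1 and 2 of BRD7 and the start of a lncRNA, ENSG00000261393, that runs the other way, and its summit lay 143 to 460 bp downstream of the BRD7 start. Its -log10 p-values were 154.6 and 101.6 in WT at 0 h, 170.7 and 177 at 1 h, and 130.6 and 60.31 at 10 h. The percentiles were 79.9 and 69.7 at 0 h, 92.7 and 81.1 at 1 h, and 60.7 and 39.6 at 10 h. Both 1 h lists stood above both 0 h lists, and both 10 h lists below them. In the RAD21 line they were 65.5 and 63.3 with DMSO, and 81.0 and 85.1 after 1 h. Here also both treated lists stood above both untreated ones.

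The tests of BRD7 were close to the threshold. At 1 h the change in WT was 0.49 ± 0.20 (limma adjusted p = 0.0778). It was 0.78 without the second WT list at 1 h, that is, between lists with the same form of peak name. Across the 4 fits without 1 list it ranged from 0.20 to 0.78. With the name form as a term it was again 0.78. This is no second check, since the form term rests on the same WT lists at 1 h. At 1 h in the RAD21 line BRD7 rose by 0.59 ± 0.20 (limma adjusted p = 0.0404), and the difference between the lines in the 1 h change was 0.10 ± 0.28 (limma adjusted p = 0.833). The call in the RAD21 line was lost without any 1 of its 4 lists (0.51 to 0.67, limma adjusted p from 0.103 to 0.222). At 10 h in WT BRD7 fell by 0.67 on the normal score scale with SE 0.20 (limma adjusted p = 0.0325). That call was lost without either 0 h list (-0.51 and -0.83) or the second 10 h list (-0.40), and the value was -0.10 with the name form as a term (limma adjusted p = 0.865). All 10 h lists have one name form and all 0 h lists the other, so that form and treatment cannot be told apart at 10 h. Between the lines at 0 h the BRD7 promoter differed by -0.31 ± 0.20 (limma adjusted p = 0.24) and at 1 h by -0.21 ± 0.20 (limma adjusted p = 0.52). Without the second WT list at 1 h the latter was -0.50 (limma adjusted p = 0.0246).

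**Figure D2:**
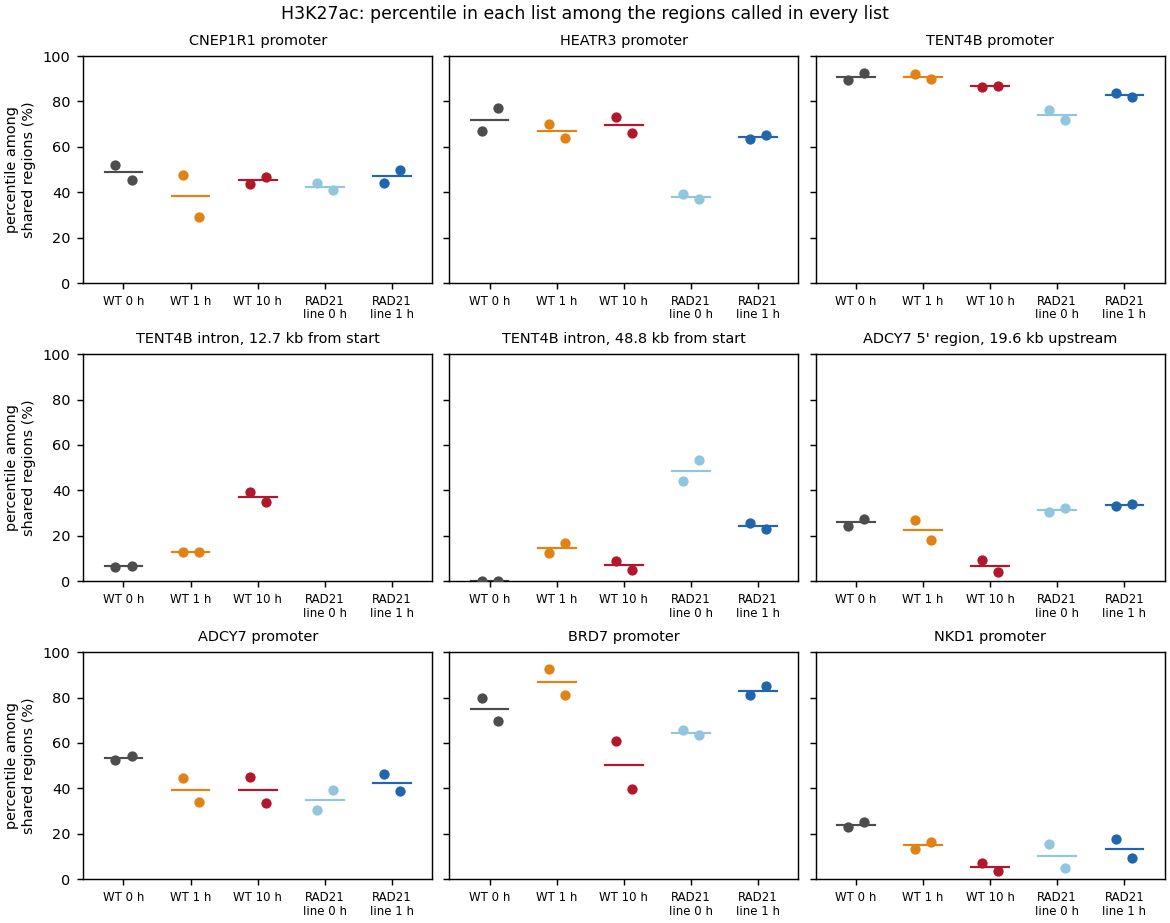
H3K27ac percentile of 9 regions among the 18757 regions shared by all 10 lists. Points are single lists and lines the mean of the 2 lists of a group, and for the proximal TENT4B intron region, missing from 1 list of the RAD21 line, only WT is drawn, among the 20532 regions shared by the 6 WT lists. The distal TENT4B intron region goes from percentiles 0.2 and 0.1 at 0 h to 12.5 and 17.0 at 1 h in WT, and stands at 43.9 and 53.3 in the RAD21 line with DMSO.

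The clearest change with Nutlin-3a lay within TENT4B and not at a promoter. The distal intron region, chr16:50236045-50238186, lies in intron 1 of 12 exons, 48828 bp from the nearest TENT4B start in the basic set. Its -log10 p-values were 5.01 and 4.41 in WT at 0 h, 14.8 and 19.7 at 1 h, and 12.4 and 9.5 at 10 h. Fold enrichment over the local background was 2.75 and 2.78 at 0 h, 4.85 and 7.89 at 1 h, and 5.84 and 5.13 at 10 h. Every treated WT list stood above every untreated one on both measures. The rank rose by 1.96 ± 0.23 at 1 h (limma adjusted p = 0.000156) and by 1.52 ± 0.23 at 10 h (limma adjusted p = 0.00131). Both calls held without any 1 list (1.73 to 2.05 and 1.29 to 1.70). At 10 h the value with the name form as a term was 1.32 (limma adjusted p = 0.0681), and at 1 h with ranks by fold enrichment it was 1.31 (limma adjusted p = 0.0606). At 0 h this region was among the weakest shared regions, where a small step in percentile is a large step in normal score. It is absent from the ranking when every list must reach a -log10 q-value of 5.

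In the RAD21 line this region was higher than in any WT list already with DMSO, though near the middle of the ranking. With DMSO the -log10 p-values were 45.5 and 74.8 and the fold enrichments 15.7 and 17.6. After 1 h of Nutlin-3a the -log10 p-values were 45.7 and 58.7 and the fold enrichments 15.0 and 15.5. The -log10 p-values of the treated and untreated lists overlapped. In percentiles the lists with DMSO (43.9 and 53.3) stood above the treated ones (25.8 and 22.9), and all 4 stood above every WT list, of which the highest reached 17.0. The difference from WT at 0 h was 2.98 ± 0.23 (limma adjusted p = 1.27e-06), and 2.74 to 3.11 without any 1 list. Name form and line cannot be told apart in this difference. At 1 h it was 0.36 ± 0.23 (limma adjusted p = 0.326). Within the RAD21 line the rank fell by 0.66 with SE 0.23 (limma adjusted p = 0.045), a call lost without any 1 of the 4 lists (-0.75 to -0.53). The difference between the lines in the 1 h change was -2.62 ± 0.32 (limma adjusted p = 0.000164), called in all 8 fits without 1 list (-2.75 to -2.39). Ranked by fold enrichment it was -1.95 (limma adjusted p = 0.114).

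The proximal intron region, chr16:50199938-50202036, 12721 bp from the nearest TENT4B start in the basic set, followed a later course in WT. Its -log10 p-values were 9.15 and 9.29 at 0 h, 12.2 and 12.2 at 1 h, and 44.7 and 37.8 at 10 h. Fold enrichment was 3.41 and 3.69 at 0 h, 4.74 and 5.54 at 1 h, and 13.7 and 11.3 at 10 h. Both 10 h lists stood well above the other 4. In the RAD21 line it was called in 1 of 2 lists with DMSO (-log10 p-value 8.53) and in both after 1 h (14.5 and 28.3). Since 1 list lacked it, it was not in the ranking of all 10 lists. In a fit of the 6 WT lists alone, chosen after the values were seen, the change was 0.38 ± 0.19 at 1 h (limma adjusted p = 0.188) and 1.19 ± 0.19 at 10 h (limma adjusted p = 0.0132). The 10 h value sets lists of one name form against lists of the other, and a part of the name form in it was not tested.

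Elsewhere in the window the calls were fewer and followed no single direction. The HEATR3 promoter, chr16:50099421-50101110, stood at percentiles 67.0 and 77.0 in WT at 0 h and at 69.9 and 64.1 at 1 h. In the RAD21 line it stood at 39.1 and 36.9 with DMSO and at 63.3 and 65.4 after 1 h. It was thus lower than WT with DMSO (-0.89 ± 0.13, limma adjusted p = 0.000202), where name form and line cannot be told apart. At 1 h it rose in the RAD21 line (0.67 ± 0.13, limma adjusted p = 0.00224). The difference between the lines in the 1 h change was 0.82 ± 0.18 (limma adjusted p = 0.00692), and these 3 calls held without any 1 list. The ADCY7 promoter, chr16:50299288-50301589, was lower in the RAD21 line at 0 h (-0.48 ± 0.15, limma adjusted p = 0.0248). That call was lost without 3 of the 4 lists, with -0.35 without the first RAD21 line list and -0.50 and -0.45 without the first and the second WT list.

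At 10 h in WT the region at the outer ADCY7 start and the NKD1 promoter were lower. The former, chr16:50278661-50280821, ends 19641 bp before the nearest ADCY7 start in the basic set. It stood at percentiles 24.4 and 27.4 at 0 h, 27.1 and 18.3 at 1 h, and 9.2 and 3.8 at 10 h. Its change at 10 h was -0.91 ± 0.18 (limma adjusted p = 0.00623), lost without the second 0 h list (-0.86) or the second 10 h list (-0.66). The NKD1 promoter, chr16:50582162-50582961, stood at 22.9 and 25.2 at 0 h, 13.5 and 16.5 at 1 h, and 7.0 and 3.5 at 10 h. Its change at 10 h was -0.94 ± 0.25 (limma adjusted p = 0.0241), lost without any 1 of the 4 lists (-1.06 to -0.73). With the name form as a term neither passed (-0.61 and -1.06). The CNEP1R1 promoter, chr16:50058590-50060402, passed in no contrast, and its percentiles lay between 29.0 and 52.2 in all 10 lists. Without the first WT list at 1 h it did pass, at -0.51 (limma adjusted p = 0.00671) against 0 h, at 0.47 (limma adjusted p = 0.0245) for the RAD21 line against WT at 1 h and at 0.63 (limma adjusted p = 0.0109) for the difference in the 1 h change.

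**Figure D3:**
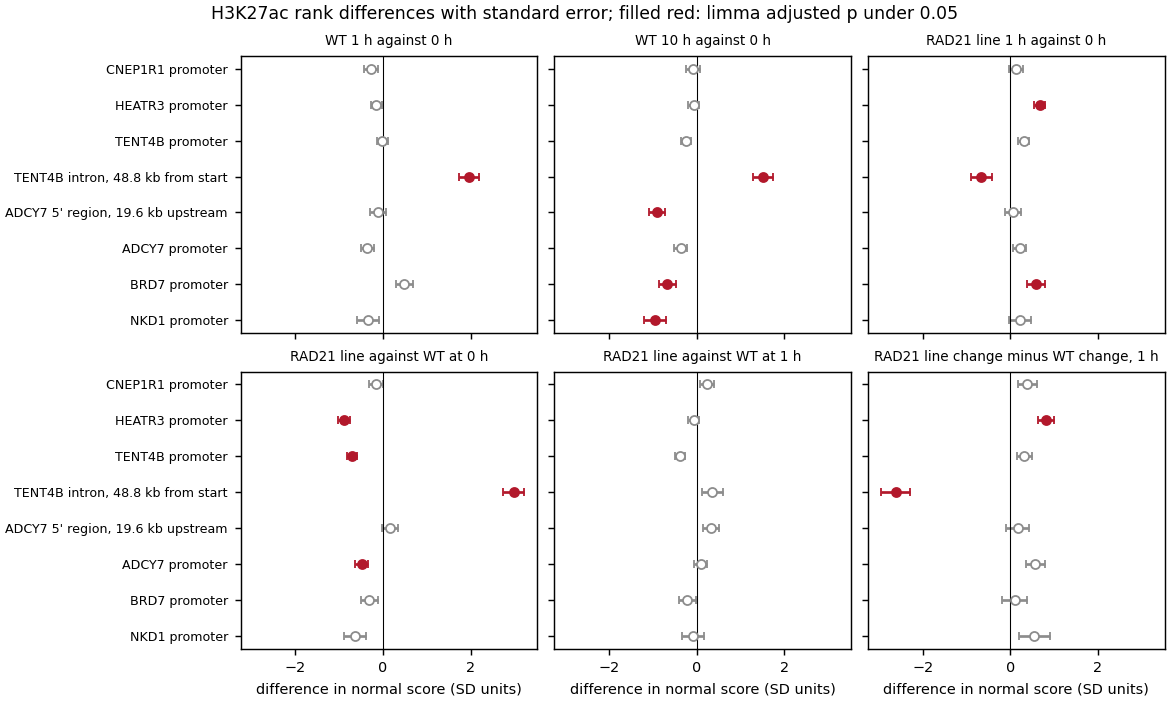
Rank difference of the 8 H3K27ac regions called in all 10 lists, in normal scores, with bars of 1 SE on each side, by comparison. Filled red points have a limma adjusted p under 0.05: the distal TENT4B intron region lies farthest from 0, at 1.96 in WT at 1 h and 2.98 for the RAD21 line against WT at 0 h.

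Counted over the 8 regions, 1 rose and 0 fell at 1 h in WT, where 29.1% of all shared regions were called in either direction. At 10 h in WT 1 rose and 3 fell, with 18.3% called over the genome. At 1 h in the RAD21 line 2 rose and 1 fell (27.7% over the genome). For the RAD21 line against WT 1 was higher and 3 were lower at 0 h (37.5%), and 0 passed at 1 h (11.8%), where 1 of 8 had an unadjusted limma p under 0.05. The difference between the lines in the 1 h change passed for 2 (22.7%). The median change of the 8 was -0.13 at 1 h and -0.30 at 10 h in WT, beside -0.007 and -0.036 over all regions, and -0.39 for the RAD21 line against WT at 0 h, beside -0.058. With so few regions these counts say nothing of the neighbourhood as a whole.

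Peaks gained or lost outright (called in both lists of one group and in neither of the other) were few and weak. In WT at 1 h 0 of the 46 H3K27ac regions were gained (1.51% of all regions) and 0 lost (1.32%). At 10 h in WT 4 were gained (11.4%) and 0 lost (1.9%). The 10 h and 0 h lists differ in the form of the peak name, so form and treatment cannot be told apart in these counts. The 4 were chr16:50111815-50112337 and chr16:50137659-50138387 in introns 6 and 14 of HEATR3, chr16:50335271-50335712 in intron 10 of ADCY7 and chr16:50348928-50349781 over the last ADCY7 exons inside BRD7. Their -log10 p-values at 10 h lay between 3.16 and 8.95. In the RAD21 line at 1 h 1 was gained (4.61%), chr16:50248131-50248812 over exon 3 of TENT4B with -log10 p-values of 4.36 and 5.95, and 3 were lost (2.87%). The 3 lost were chr16:50337567-50338365 and chr16:50344513-50345030 in ADCY7 and the noncoding promoter chr16:50698888-50699869, whose -log10 p-values with DMSO had been 6.86 and 8.33. Of the RAD21 line against WT at 0 h, where the lists also differ in name form, 2 were gained (5.28%), the same places in ADCY7, and 0 lost (2.83%). At 1 h the TENT4B exon 3 region was the 1 gained (3.24%), and 0 were lost (1.15%). Only at 10 h did a gained region remain (1 of 4) when presence needed a -log10 q-value of 5 and absence still meant no peak at all. Neither promoter of interest was gained or lost in any comparison, since both were called in all 10 lists.

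The intergenic H3K27ac peak nearest to BRD7 was weak and not steady. The region chr16:50430365-50431861 lies 27466 bp before the BRD7 start. In WT its -log10 p-values were 8.51 and 9.61 at 0 h, 6.07 in 1 list at 1 h and 4.15 in 1 list at 10 h. In the RAD21 line it was called in 1 list with DMSO (3.51) and in both after 1 h of Nutlin-3a (16.5 and 22.3). It was therefore in 7 of 10 lists and entered no test. The other 3 intergenic regions were called in 3 lists or fewer.

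H3K4me1 at the same places changed little. The BRD7 promoter stood at percentiles 63.9 and 33.9 at 0 h, 48.7 and 54.3 at 1 h, and 60.7 and 65.8 at 10 h, and the 0 h lists spanned the others nearly whole. The TENT4B promoter stood at 88.4 and 80.2 at 0 h, 76.0 and 87.7 at 1 h, and 75.8 and 73.9 at 10 h. The H3K4me1 region over the proximal intron region, chr16:50198091-50204769, stood at 62.9 and 69.9 at 0 h, 66.9 and 78.2 at 1 h, and 89.2 and 89.1 at 10 h, with both 10 h lists above the rest. Its change at 10 h was 0.81 ± 0.18 (limma adjusted p = 0.0633, unadjusted 0.000439), the smallest adjusted p-value of the window for this mark. The H3K4me1 region over the distal one, chr16:50226135-50238871, is the longest of the window, with 8164 to 10815 bp covered per list. It stood at 57.7 and 57.4 at 0 h, 76.8 and 65.6 at 1 h, and 58.0 and 59.4 at 10 h (0.38 ± 0.20, limma adjusted p = 0.377 at 1 h).

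Of the 30 H3K4me1 regions called in all lists, 0 passed at 1 h (0.595% of all regions called) and 0 at 10 h (0.638%). With limma's unadjusted p under 0.05 there were 3 at each time. At 1 h 2 of 60 were gained (3.3% of all regions) and 1 lost (1.75%). At 10 h 0 were gained (2.63%) and the same intergenic region, chr16:49917873-49918437, was lost (2.29%), with -log10 p-values of only 2.73 and 3.30 at 0 h. The 2 gained at 1 h lay in ADCY7 (chr16:50345231-50345866) and at the end of BRD7 (chr16:50352648-50353211), with -log10 p-values from 2.56 to 3.93.

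**Figure D4:**
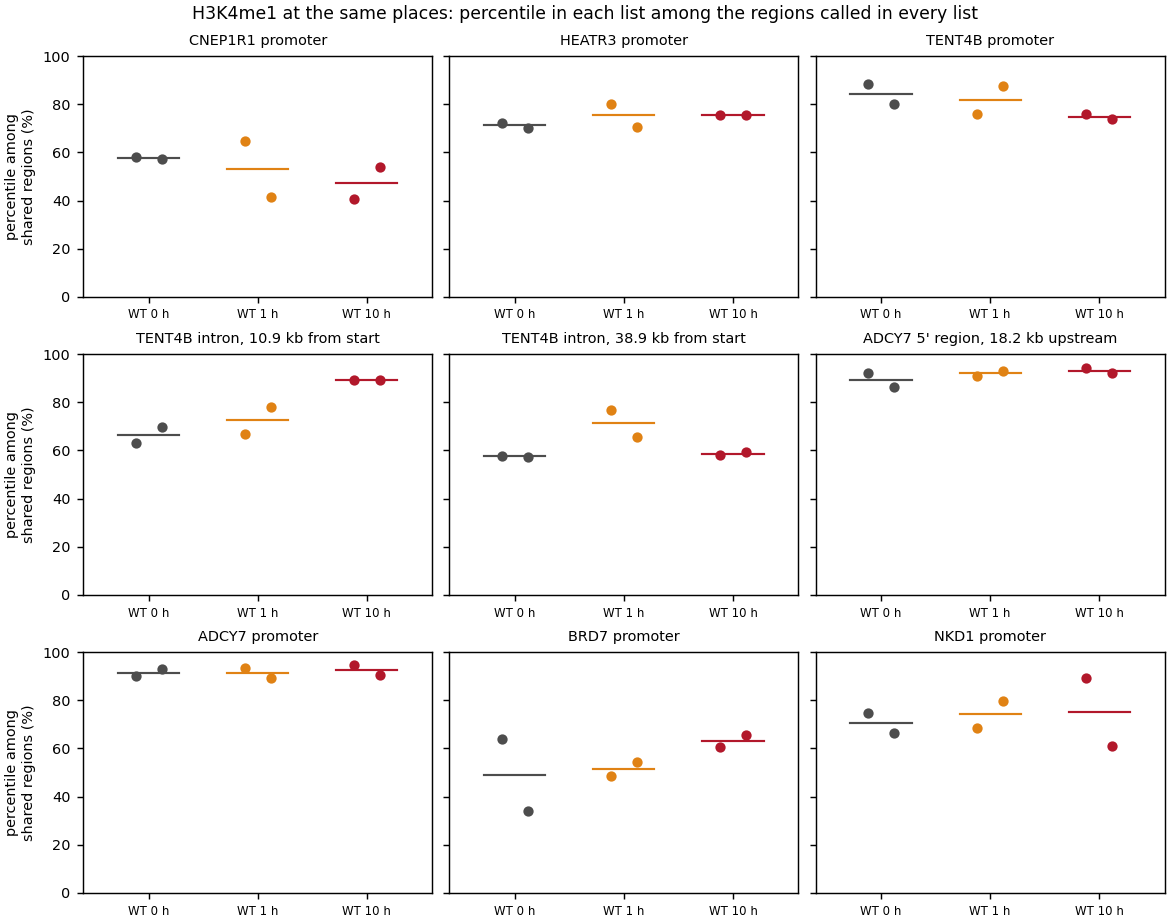
H3K4me1 percentile, among the 60476 regions shared by the 6 lists, of the regions that overlap the 9 H3K27ac regions. Points are single lists and lines the mean of 2. The region over the proximal TENT4B intron peak stands at 89.2 and 89.1 at 10 h, above the other 4 lists.

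Between BRD7 and NKD1 lay the intergenic H3K4me1 region of highest mean rank in the window. This region, chr16:50506594-50509043, 73264 bp before the NKD1 start, had -log10 p-values of 30.5 and 25.3 at 0 h, 36.5 and 36.2 at 1 h, and 16.9 and 23.4 at 10 h, and it overlapped an H3K27ac region called in a single list. The intergenic region nearest to the BRD7 start, chr16:50406693-50409884 at 3794 bp, had values of 22.9 and 22.6 at 0 h, 14.8 and 13.3 at 1 h, and 13.7 and 21.9 at 10 h, and no H3K27ac peak in any list. At the BRD7 promoter itself H3K4me1 was weaker, at 13.9 and 6.94 at 0 h. Regions with both marks in both lists of a time point numbered 11 at 0 h, 9 at 1 h and 10 at 10 h, of which 6 lay in coding promoters each time. H3K27ac called in both lists without H3K4me1 in both was found at 0 of 11 regions at 0 h and 0 of 9 at 1 h (2.22% and 1.57% of all such regions). At 10 h it was found at 5 of 15 (33.3%, beside 17.8%). The H3K27ac lists at 10 h differ from those at 0 h in name form, so form and treatment cannot be told apart here.

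BRD7 and TENT4B did not follow each other. Over the 10 lists the normal scores of the 2 promoters had a Pearson correlation of 0.319, given as a description since lists share groups and treatments. The promoters most like BRD7 were the one shared by GVQW3 and THAP12 (0.985), that of NIN (0.973) and that of FANCE (0.967). Most like TENT4B were ALDH1B1 (0.975), NUP133 (0.958) and XPO4 (0.954). These were the highest of 10615 promoter regions and values near 1 come easily among so many.

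The complexes in which both proteins work were followed at their promoters. All 11 genes of the PBAF list had a promoter region called in every list. In WT 2 rose and 1 fell at 1 h (29.1% of all shared regions called), and 0 rose and 2 fell at 10 h (18.3%). In the RAD21 line 5 rose and 1 fell at 1 h (27.7%). The medians were 0.12, -0.05 and 0.38, beside -0.007, -0.036 and 0.037 over all regions. BRD7 itself belongs to the list, and its fall in WT at 10 h and its rise in the RAD21 line are among these counts. PBRM1, the polybromo subunit, fell in WT at 1 h (-0.53 ± 0.14, limma adjusted p = 0.0142) and rose in the RAD21 line (0.51 ± 0.14, limma adjusted p = 0.0174). SMARCC1, a core scaffold subunit, rose in the RAD21 line at 1 h (0.80 ± 0.12, limma adjusted p = 0.000431). SMARCB1, another core subunit, was lower in the RAD21 line at 0 h (-0.86 ± 0.17, limma adjusted p = 0.00194). ACTL6A, an actin-like subunit, rose in WT at 1 h (0.40 ± 0.13, limma adjusted p = 0.0364) and fell at 10 h (-0.47 ± 0.13, limma adjusted p = 0.0277). The WT lists at 10 h and 0 h differ in name form, as do the lines at 0 h. There form cannot be told apart from treatment or line.

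All 9 genes of the list of non-canonical poly(A) polymerases and exosome cofactors were also measured. In WT 1 rose and 2 fell at 1 h (29.1% of all shared regions called), and 0 rose and 1 fell at 10 h (18.3%). In the RAD21 line 2 rose and 0 fell at 1 h (27.7%). For the RAD21 line against WT at 0 h 0 were higher and 5 lower (37.5% of all shared regions called), with a median of -0.34 beside -0.058. Beside TENT4B these were ZCCHC7, the RNA-binding subunit of the TRAMP complex (-0.68 ± 0.16, limma adjusted p = 0.00445), EXOSC10, the nuclear exosome nuclease (-0.59 ± 0.16, limma adjusted p = 0.0128), and, named only to complete the count, MTPAP and TENT2. TUT1, the U6 snRNA uridylyltransferase, rose in WT at 1 h (0.84 ± 0.14, limma adjusted p = 0.000953), in a long region, chr11:62355296-62370831. Beside the shares of all regions called, these counts are descriptions of short lists. Name form cannot be told apart from line between the lines at 0 h, or from treatment in WT at 10 h.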

How the data were processed

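ChIP-seq of H3K27ac and H3K4me1 in HCT116 was analysed from 16 peak lists, 1 per library, in 8 groups of 2. The 10 input libraries were not analysed here. According to the methods of the study and the submitters' processing notes, reads were trimmed with Trim Galore 0.6.6, aligned to GRCh37 with Bowtie2 2.3.2 and called with MACS2 2.2.7.1 against input (narrow for H3K27ac, broad for H3K4me1), each library alone. The deposited values are the fold over MACS2's local background (a ratio) and -log10 of the p-value and q-value of each peak. The files give no read counts, and sequencing depth was not used here. Some peak names carry other replicate numbers than the labels, and 1 RAD21 line list at 0 h is named for 2 replicates, so how separate these are is unknown, and p-values measure the spread between lists.

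Peaks of one mark were merged where they overlapped by 1 bp. Regions called in every list were ranked by -log10 p-value, turned into normal scores and fitted with limma 3.58.1 (R 4.3.3), 1 coefficient per group, with Benjamini-Hochberg adjustment over all regions and a threshold of 0.05. Scripts were tested on simulated data. Genes are from GENCODE for GRCh37. The sequence of the proximal TENT4B intron region is not reported here. Named regions are all coding promoters of the window, every region called, gained or lost, the non-promoter regions of highest rank and the promoters most like BRD7 and TENT4B, with 4 genes of each list by smallest adjusted p-value. The proximal TENT4B intron region was fitted in WT alone after its values were seen, and the intergenic H3K4me1 regions named were also chosen then. The members and lists were chosen with earlier results of these data known. Alternatives were ranking by fold, the form of the peak name as a term, a replicate block, a -log10 q-value of at least 5, merging across 500 bp, 50% coverage of a region, and leaving out each list. Replicate deviations of different groups correlated between -0.0501 and 0.0453, so same-numbered lists did not deviate together. Whether they come from the same culture is unknown.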

Additional observations from a re-analysis of the deposited data

Results flagged for a closer look

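The distal TENT4B intron region differed between the lines in its H3K27ac change after 1 h of Nutlin-3a, by -2.62 in normal score (limma adjusted p = 0.000164): the rank rose in WT by 1.96, and the change in the RAD21 line was -0.66 (limma adjusted p = 0.045). The latter was called in none of the 4 fits without 1 list (limma adjusted p from 0.102 to 0.25). The HEATR3 promoter differed in the other direction, by 0.82 (limma adjusted p = 0.00692), rising in the RAD21 line alone past the threshold. These differences were tested by the interaction of line and treatment, and 22.7% of all shared regions passed that test. At 0 h the form of the peak name differs between the lines. With the form as a term the values were -2.52 and 0.74, and ranked by fold enrichment -1.95 and 0.89, where neither passed (limma adjusted p = 0.114 and 0.471).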

How the results depend on the processing

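Values below are rank changes in normal score with limma adjusted p, or counts of regions, and the cause of a change was not tested unless stated. No called value changed sign. A term for the form of the peak name takes its effect from the WT lists at 1 h alone, the only group with both forms. With the form of the peak name as a term, BRD7 was 0.78 in WT at 1 h and -0.10 at 10 h, and TENT4B 0.30 (0.0159) in the RAD21 line at 1 h. The called regions then numbered 2 for WT at 1 h, 0 at 10 h, and 1 for the lines compared at 1 h. Ranked by fold enrichment, BRD7 was -1.0 (0.103) for WT at 10 h and 0.62 (0.568) for the RAD21 line, with 0 calls after 1 h in either line and 0 in the difference between the lines. In the 6 WT lists alone, BRD7 at 10 h was -0.64 (0.0965). With a replicate block, BRD7 at 1 h in WT was 0.49 (0.0429) and 2 regions were called there, while the distal TENT4B intron region in the RAD21 line was -0.66 (0.0574). Whether same-numbered lists are paired is unknown, so the block rests on numbers alone. With a -log10 q-value of 5 in every list, 0 were called in WT at 1 h and 1 in the difference between the lines, since the distal TENT4B intron region is then not tested. For presence at that q-value, with absence still meaning no peak, gained H3K27ac regions numbered 1 for WT at 10 h, 0 within the RAD21 line and 0 in either comparison of the lines, with 0 lost in the RAD21 line. H3K4me1 then had 0 gained and 0 lost at 1 h and 0 lost at 10 h, and covered 7.34% of the window on average. With 50% of a region covered, gained H3K27ac regions numbered 1 for WT at 1 h and 3 for the RAD21 line, lost ones 2 for WT at 10 h and 1 for the lines compared at 0 h, and H3K4me1 had 7 gained at 1 h and 2 lost at 10 h. Merging across 500 bp changed no call. Leaving out 1 list, BRD7 ranged from 0.20 to 0.78 for WT at 1 h, -0.93 to -0.40 at 10 h, 0.51 to 0.67 for the RAD21 line, and -0.50 to 0.08 between the lines at 1 h, and TENT4B from -0.44 to -0.33 there. Called regions ranged from 1 to 3 in WT at both times, 1 to 1 in the RAD21 line, 3 to 4 (0 h) and 0 to 2 (1 h) for one line against the other, and 2 to 4 for the difference. Gained H3K27ac regions ranged from 0 to 5 and 4 to 6 in WT, 1 to 4 in the RAD21 line, and 2 to 11 and 1 to 4 between the lines. Lost ones ranged from 1 to 3 and 0 to 2 in WT, 3 to 11 in the RAD21 line, and 0 to 3 and 0 to 5 between the lines. H3K4me1 ranged from 3 to 6 and 0 to 2 gained, and 2 to 4 and 2 to 9 lost. Sequencing depth was not used here, and its part in these values was not tested.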
